A study of Sus scrofa with 6 samples.

Results

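The genes described here are 9 genes of calcium stores and egg activation, taken by name from the gene table of a porcine oocyte RNA-seq study: ITPR1, ITPR2, ITPR3, ATP2A2, CALR, STIM1, ORAI1, TRPM7 and CAMK2G. All 9 were found among the 29861 genes of the table, each with a value in all 6 samples. The 3 groups of oocytes from Sus scrofa were sequenced, with 2 samples in each group. The control oocytes were left unheated, the heat stress oocytes were exposed to a raised temperature, and the heat stress+NMN oocytes were heated in medium that also held nicotinamide mononucleotide (NMN), a precursor of NAD. The labels give the stage as GV (germinal vesicle, the immature oocyte) and the time as 24 hours, whereas the study's methods speak of oocytes sampled at metaphase II, so the stage of the sequenced oocytes is not settled. The oocytes came from abattoir ovaries and were pooled, and neither age, breed nor animal is stated. Nothing states that the samples of a group were separate cultures, so each P-value measures only the spread between these samples, which may be technical.

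A mature oocyte waits at metaphase II until the sperm starts a series of calcium rises. The calcium comes from the endoplasmic reticulum (ER), where a SERCA pump loads it and calcium-binding chaperones hold it, and it leaves through inositol trisphosphate (IP3) receptors when phospholipase C makes IP3. STIM1 senses an empty store and opens ORAI1 channels in the cell membrane, and TRPM7 is a further route of entry. Calcium bound to calmodulin then switches on CaM kinase II, which releases the egg from metaphase II arrest.

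Among these genes, the clearest differences lay between heat stress+NMN and control oocytes. ATP2A2, the SERCA pump of the store, was 1.71-fold higher (log2 fold change 0.78 ± 0.13 SE) and TRPM7 was 1.78-fold higher (0.83 ± 0.19). CALR, the calcium-binding chaperone calreticulin, was 3.8-fold lower (-1.93 ± 0.39) and ORAI1, the store-operated channel, was 3.10-fold lower (-1.63 ± 0.49). The other tested genes of the group did not pass the adjusted threshold, and CAMK2G was nearly level in the 3 groups.

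Because CALR, ORAI1, ATP2A2 and TRPM7 carried these differences, the 250 bases before each annotated start are given here 5′ to 3′ from the Sscrofa11.1 genome with RefSeq gene starts. The windows lie at chr2:66102075-66102324 (- strand), chr14:31028009-31028258 (- strand), chr14:31674409-31674658 (+ strand) and chr1:121145843-121146092 (+ strand). Capitals mark letters of CCAAT (or ATTGG, its other strand), of GGGCGG (or CCGCCC), and of the CGTGG that begins the ER stress element in CALR.
CALR: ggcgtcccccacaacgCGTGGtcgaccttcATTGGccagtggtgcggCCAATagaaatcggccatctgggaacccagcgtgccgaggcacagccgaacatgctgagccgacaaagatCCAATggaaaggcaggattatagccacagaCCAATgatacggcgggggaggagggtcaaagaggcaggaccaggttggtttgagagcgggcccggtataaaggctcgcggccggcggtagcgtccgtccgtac
ORAI1: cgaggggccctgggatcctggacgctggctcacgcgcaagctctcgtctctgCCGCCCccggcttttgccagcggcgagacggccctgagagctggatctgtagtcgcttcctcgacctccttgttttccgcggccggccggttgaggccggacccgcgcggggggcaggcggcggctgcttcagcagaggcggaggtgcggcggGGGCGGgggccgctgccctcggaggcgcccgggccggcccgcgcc
ATP2A2: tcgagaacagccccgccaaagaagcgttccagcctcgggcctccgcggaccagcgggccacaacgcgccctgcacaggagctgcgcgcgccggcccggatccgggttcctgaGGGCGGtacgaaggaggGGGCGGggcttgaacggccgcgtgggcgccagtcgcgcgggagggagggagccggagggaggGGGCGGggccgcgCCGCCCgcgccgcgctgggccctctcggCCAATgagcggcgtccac
TRPM7: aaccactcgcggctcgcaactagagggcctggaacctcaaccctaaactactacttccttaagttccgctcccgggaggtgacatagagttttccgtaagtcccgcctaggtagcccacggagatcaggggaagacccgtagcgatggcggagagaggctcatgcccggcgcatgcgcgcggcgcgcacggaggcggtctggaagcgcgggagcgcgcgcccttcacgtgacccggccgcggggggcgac

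The motifs were searched on both strands in windows of 300 bases, from 250 before to 50 after the start. CALR held the ER stress element, which is CCAAT followed after 9 bases by CCACG, with its first base 234 bases before the start. This element is known as a binding sequence used when the ER is overloaded with unfolded protein, and 16 of 20634 protein-coding gene windows (0.0775%) held it. Its CCAAT is also 1 of the 4 CCAAT motifs in the CALR window. CCAAT was in 3 of the 9 windows (CALR, ATP2A2 and ITPR2) against 35.7% of all windows. GGGCGG, the letters of a GC box, was in 5 of the 9 (ITPR2, ITPR3, ATP2A2, STIM1 and ORAI1) against 48.9%. Of the paired heat shock units, GAANNTTC was in none of the 9 (6.47% of all windows) and TTCNNGAA was in CAMK2G (6.90%). TRPM7 and ITPR1 held none of the motifs in this window.

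The deposited values are FPKM, fragments per kilobase in the authors' scaling of each sample. The low values rose in whole steps only when the length was taken as the whole annotated gene, introns included, less about 220 bases. With that length, 99.6 to 99.7% of low values came within 0.1 of a whole number of fragments, against at most 21.1% with the longest transcript. The fragments behind each value could therefore be read back, and a deposited FPKM compares samples for 1 gene but not 1 gene with another. In rounded numbers, the fragments assigned to genes were 9373000 and 10471000 in the control, 7568000 and 8780000 in the heat stress and 10039000 and 8895000 in the heat stress+NMN samples. All 12 oocyte markers were detected in each group, with summed fragments of 168317 to 202865 in control, 129309 to 156639 in heat stress and 127432 to 152128 in heat stress+NMN samples. These sums, and those of the other markers below, are not scaled for depth. The summed FPKM of the oocyte markers was 3423 to 3645, 3338 to 3347 and 2894 to 3155 in the same order. Of 14 cumulus and granulosa cell markers, 9, 9 and 12 were above 0 in the 3 groups, with summed fragments of 490 to 568, 322 to 597 and 429 to 507, and AMH and INHA were at 0 in all samples. Of 4 blood cell markers, 2, 2 and 1 were above 0, with summed fragments of 12 to 16, 11 to 19 and 0 to 1, and LYZ was at 0 throughout. The part of other cells in the results was not tested, and in such bulk samples fewer cells of a type cannot be told from less RNA per cell.

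**Figure D1:**
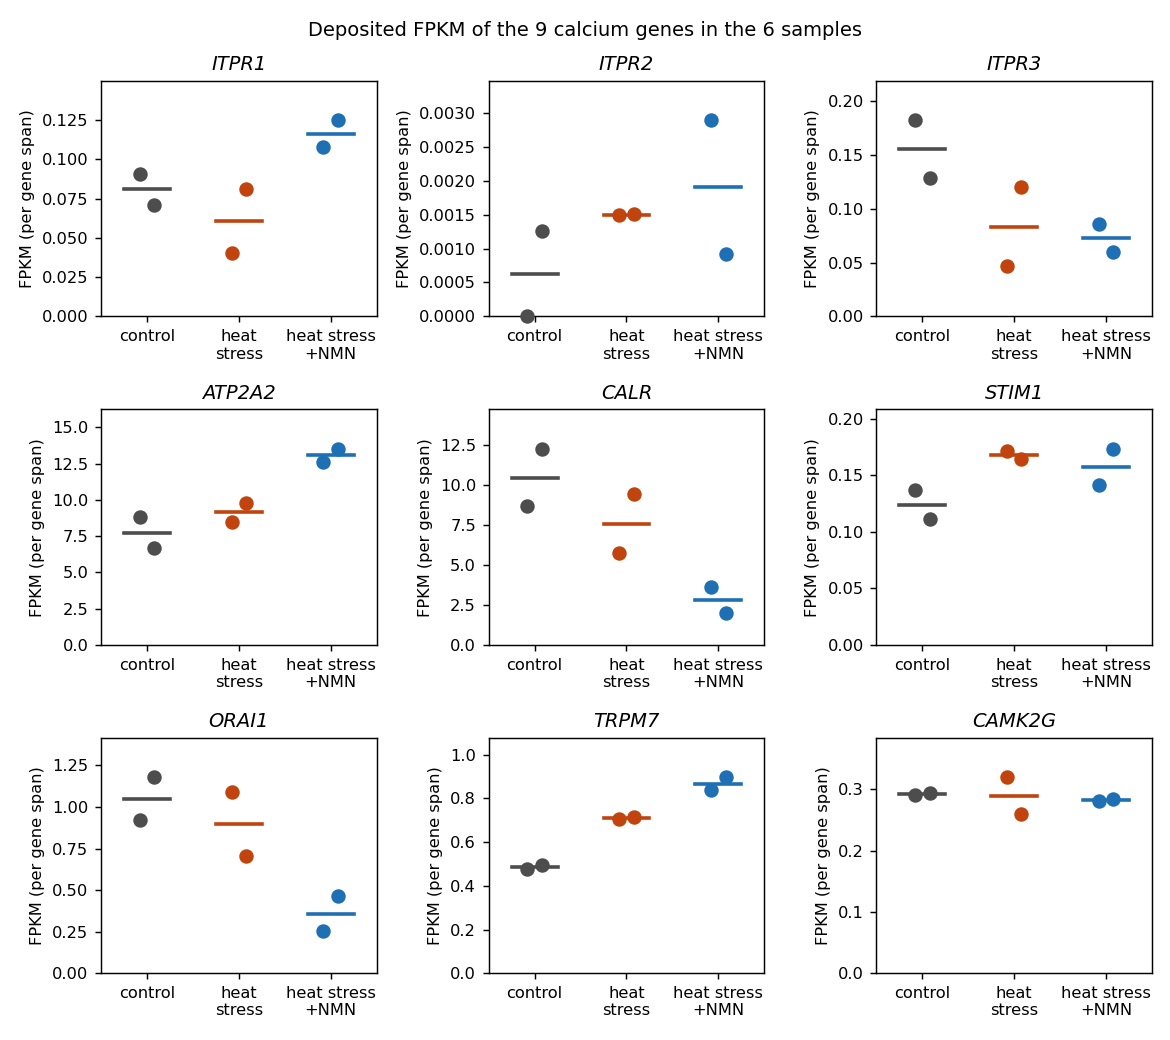
Deposited FPKM per gene span (vertical axes, each from 0) of the 9 calcium genes in the 3 groups (horizontal axes), with 1 point per sample and a line at the group mean. The heat stress+NMN points lie above all others for ATP2A2, TRPM7 and ITPR1 and below all others for CALR and ORAI1. With 2 samples in each group such separation alone says little. Even for CAMK2G, which was nearly level, the heat stress+NMN and control points did not overlap.

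Fits of 2 kinds were made with limma. The first used log2(FPKM + 1) of the 4713 genes whose FPKM averaged 1 or more, which only ATP2A2 and CALR of the 9 passed. This minimum sets fragments against the gene span, so a longer gene needs more fragments to pass. The second, added after the data were seen, used the recovered fragments of the 13210 genes with a mean of at least 10, and tested 8 of the 9. ITPR2 passed neither. Fold changes below are log2 values from the recovered fragments unless the FPKM fit is named, and P was adjusted over all genes tested by the Benjamini-Hochberg method.

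The question of the first comparison was what heat alone did. Of the 8 genes, 1 (TRPM7) passed an unadjusted P under 0.05 between heat stress and control, where 18.0% of all tested genes passed, and none passed the adjusted threshold, which 4.22% of all genes did. In the FPKM fit neither ATP2A2 nor CALR passed at an unadjusted P, against 22.8% of all genes. The second comparison asked what NMN changed in heated oocytes. Here 4 of 8 genes passed an unadjusted P (ATP2A2 and ITPR1 higher, CALR and ORAI1 lower) against 11.2% of all genes, and in the FPKM fit both tested genes did against 13.6%. None of the 8 passed the adjusted threshold, which 0.151% of all genes did. The third comparison set heated oocytes with NMN against control. Here 4 of 8 passed both the unadjusted P (29.6% of all genes) and the adjusted P (18.5% of all genes), namely ATP2A2 and TRPM7, which rose, and CALR and ORAI1, which fell. In the FPKM fit both tested genes passed the unadjusted P (41.3%) and the adjusted P (21.5%). When the minimum of that fit was lowered to 0.1 FPKM, which admits ORAI1 and TRPM7, none of the 4 passed the adjusted P. Of all 11651 genes tested there, 86 passed. The adjusted P with limma was 0.074 for ATP2A2, 0.0689 for CALR, 0.0903 for TRPM7 and 0.0926 for ORAI1. ATP2A2 and CALR kept their fold changes of 0.70 and -1.61. On that scale log2(FPKM + 1) shrinks the changes of low genes (0.33 for TRPM7 and -0.60 for ORAI1). The 3 comparisons share samples, so they are not independent of each other.

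With each sample scaled to the same number of nuclear fragments in place of the authors' scaling, the median of all tested genes moved from -0.02 to -0.16 in heat stress versus control, from 0.01 to -0.13 in heat stress+NMN versus heat stress and from -0.06 to -0.33 in heat stress+NMN versus control. The share of higher genes among those passing the unadjusted P moved from 60% to 34.6%, from 60.6% to 23.2% and from 58.0% to 28.6%. The 4 genes called between heat stress+NMN and control kept their directions, with ATP2A2 at 0.51, TRPM7 at 0.56, CALR at -2.19 and ORAI1 at -1.90. Between heat stress and control, 1 of the 8 genes then passed an unadjusted P, where 2392 of 13210 tested genes did. It was CALR, which was lower, in place of TRPM7.

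**Figure D2:**
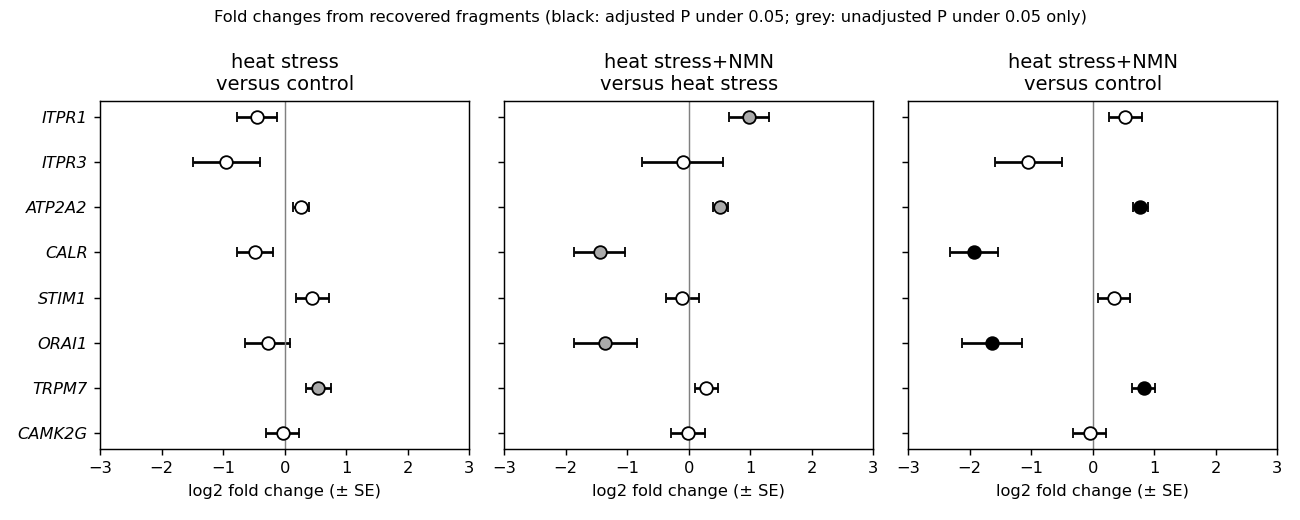
Log2 fold changes from recovered fragments (horizontal axes, bars are ± SE) of the 8 tested genes (rows) in the 3 comparisons (panels). Black points passed an adjusted P under 0.05, grey points an unadjusted P only, and the black points are all in heat stress+NMN versus control.

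ATP2A2 encodes the SERCA2 pump that moves calcium from the cytosol into the ER (chr14:31674659-31744981, + strand, 4 annotated transcripts). Its deposited FPKM was 8.78 and 6.67 in control, 8.49 and 9.78 in heat stress, and 12.6 and 13.5 in heat stress+NMN samples. Both heat stress+NMN values were above the other 4, and the control and heat stress values overlapped. The values rest on 4521 to 8103 fragments per sample. Between heat stress+NMN and control the log2 fold change was 0.78 ± 0.13 (adjusted P = 9.19e-05 with limma), and 0.70 ± 0.16 in the FPKM fit (adjusted P = 0.0364). In the FPKM fit with the replicate number as a block, the adjusted P was 0.0672 with limma. Between heat stress+NMN and heat stress the log2 fold change was 0.52 ± 0.13 (unadjusted P = 0.000446, adjusted P = 0.0853 with limma), which passed without adjustment only. It passed the adjusted threshold with only the 2 compared groups in the fit (adjusted P = 0.0216 with limma), without control replicate 1 (adjusted P = 0.0179) and without control replicate 2 (adjusted P = 0.0187), and the adjusted P was 0.691 without heat stress replicate 1. Between heat stress and control it was 0.26 ± 0.13 (adjusted P = 0.299 with limma), or 0.45 (adjusted P = 0.0367 with limma) without control replicate 1. The last 253 bases of the ATP2A2 and ANAPC7 annotations overlap on opposite strands. ANAPC7, a subunit of the anaphase-promoting complex, held 539 and 616 fragments in control, 339 and 234 in heat stress and 351 and 209 in heat stress+NMN samples.

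CALR encodes calreticulin, the high-capacity calcium-binding chaperone of the ER lumen (chr2:66098263-66102074, - strand, 1 transcript of 9 exons). Its FPKM was 8.68 and 12.3 in control, 5.73 and 9.48 in heat stress, and 3.65 and 1.98 in heat stress+NMN samples. The heat stress+NMN values were below the other 4, and the control and heat stress ranges overlapped. In fragments, this was 323 and 529 in control, 155 and 300 in heat stress, and 120 and 58.0 in heat stress+NMN samples, so the lowest value has the widest counting error. The log2 fold change was -1.93 ± 0.39 between heat stress+NMN and control (adjusted P = 0.000891 with limma) and -1.61 ± 0.32 in the FPKM fit (adjusted P = 0.0294). Between heat stress+NMN and heat stress it was -1.44 ± 0.42 (unadjusted P = 0.00182, adjusted P = 0.149 with limma). Between heat stress and control it was -0.48 ± 0.29 (adjusted P = 0.403 with limma). At the same number of nuclear fragments that decrease passed the unadjusted threshold but not the adjusted one. CALR was lower in every setting tried for all 3 comparisons, between -2.39 and -1.29 for heat stress+NMN versus control. The adjusted call of that comparison did not hold in every setting. In the FPKM fit with the replicate number as a block, the adjusted P was 0.0536 with limma.

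The CALR pattern over the 6 samples was most like those of LOC110256967, RPS25 and SFN among the 4713 genes of the FPKM fit. The root mean square difference of centred log2(FPKM + 1) was 0.139, 0.219 and 0.221. RPS25, a ribosomal protein, had FPKM of 3.71 and 3.56 in control, 2.12 and 3.53 in heat stress, and 1.16 and 0.696 in heat stress+NMN samples. SFN, the 14-3-3 protein sigma, had FPKM of 15.6 and 22.3, 9.90 and 12.3, and 5.04 and 2.60 in the same order. LOC110256967 had 38.8 and 64.6, 31.8 and 48.7, and 23.6 and 15.7.

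The 16 genes whose windows hold the ER stress element include CALR and HSPA5, CANX, HSP90B1, PDIA6, CRELD2 and DERL3, which act in ER protein folding or degradation. Of the 14 that were tested, 2 rose (CANX and HNRNPA3) and 2 fell (CALR and HSPA5) at an adjusted P between heat stress+NMN and control, where 18.5% of all tested genes passed, and the median was -0.43, beside -0.06 over all tested genes. HSPA5, the ER chaperone BiP, had a log2 fold change of -0.83 ± 0.16 (adjusted P = 0.000608 with limma), while CANX, the membrane chaperone calnexin, had 0.59 ± 0.17 (adjusted P = 0.0167), or 0.33 (adjusted P = 0.21) at the same number of nuclear fragments. HSP90B1 (0.28 ± 0.18) and PDIA6 (0.03 ± 0.37) did not pass. The genes with this element thus moved in both directions. They were grouped by the element after the CALR values were known.

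The 3 IP3 receptors are the release channels of the store. ITPR1, the main type in mammalian eggs (chr13:61068131-61398918, + strand), had FPKM of 0.0906 and 0.0712 in control, 0.0403 and 0.0812 in heat stress, and 0.107 and 0.125 in heat stress+NMN samples. These correspond to 310 and 282, 101 and 236, and 325 and 337 fragments. Heat stress replicate 1 was the lowest, and both heat stress+NMN values were above the other 4. The log2 fold change was 0.98 ± 0.32 between heat stress+NMN and heat stress (unadjusted P = 0.00502, adjusted P = 0.219 with limma), and 0.51 (unadjusted P = 0.141, adjusted P = 0.727 with limma) without heat stress replicate 1. It was -0.45 ± 0.32 between heat stress and control, 0.03 without heat stress replicate 1, and 0.53 ± 0.27 between heat stress+NMN and control (adjusted P = 0.197 with limma). LOC106505661, on the opposite strand, shares 30517 bases with ITPR1 and held 352 fragments in heat stress replicate 1 against 104 to 292 in the other samples. The library protocol names no step that marks strand, so fragments of these 2 genes cannot be told apart in the shared bases.

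ITPR3 (chr7:29835922-29901305, + strand) had FPKM of 0.182 and 0.128 in control, 0.0465 and 0.120 in heat stress, and 0.0855 and 0.0601 in heat stress+NMN samples, on 23 to 123 fragments. Both control values were above the other 4. The log2 fold changes were -0.95 ± 0.55 for heat stress versus control (95% interval -2.07 to 0.17), -0.10 ± 0.66 for heat stress+NMN versus heat stress (95% interval -1.45 to 1.25) and -1.05 ± 0.54 for heat stress+NMN versus control (95% interval -2.16 to 0.07), and none passed (adjusted P = 0.372, 0.968 and 0.201 with limma). ITPR2 (chr5:46935923-47465681, + strand) held 0 and 8 fragments in control, 6 and 7 in heat stress, and 14 and 4 in heat stress+NMN samples. A count of 0 allows up to 3, so its groups could not be told apart at this depth.

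Of the fragments on the 3 receptors, ITPR1 had 71.6% (exact Clopper-Pearson 95% interval 67.1 to 75.8) and 72.3% (67.6 to 76.7) in control, 77.7% (69.6 to 84.5) and 75.6% (70.5 to 80.3) in heat stress, and 83.3% (79.3 to 86.9) and 90.3% (86.9 to 93.1) in heat stress+NMN samples. ITPR3 had 28.4% and 25.6%, 17.7% and 22.1%, and 13.1% and 8.58% in the same order. The ITPR1 share was thus highest in both heat stress+NMN samples and lowest in both control samples. The intervals cover counting error only, and with 2 samples against 2 an exact permutation test cannot go below P = 0.333, so no test of the shares was made.

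STIM1, the ER calcium sensor (chr9:6066612-6270090, - strand), had FPKM of 0.137 and 0.111 in control, 0.171 and 0.164 in heat stress, and 0.141 and 0.173 in heat stress+NMN samples. Its raw fragments were nearly level at 263 to 294 per sample, in libraries of unequal depth. They are therefore not a level share of each library, and the order of its FPKM depends on the scaling used. The log2 fold changes were 0.45 ± 0.26, -0.10 ± 0.27 and 0.35 ± 0.27 in the 3 comparisons, and none passed (adjusted P = 0.386, 0.910 and 0.404 with limma).

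ORAI1, the pore of store-operated entry (chr14:31012212-31028008, - strand, 1 transcript of 2 exons), had FPKM of 0.923 and 1.18 in control, 1.09 and 0.707 in heat stress, and 0.252 and 0.464 in heat stress+NMN samples. Its fragments were 149 and 220, 129 and 97.0, and 36.0 and 59.0. Both heat stress+NMN samples were below the other 4, and control and heat stress overlapped. The log2 fold change was -1.63 ± 0.49 between heat stress+NMN and control (adjusted P = 0.0188 with limma) and -1.36 ± 0.51 between heat stress+NMN and heat stress (unadjusted P = 0.0137, adjusted P = 0.291 with limma). The adjusted call against control was lost without heat stress+NMN replicate 1 (adjusted P = 0.302 with limma), heat stress+NMN replicate 2 (adjusted P = 0.0794) or control replicate 2 (adjusted P = 0.0958). Between heat stress and control it was -0.28 ± 0.36 (95% interval -1.02 to 0.47).

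TRPM7, a channel for calcium and magnesium joined to a kinase (chr1:121146093-121250227, + strand), had FPKM of 0.476 and 0.497 in control, 0.706 and 0.713 in heat stress, and 0.836 and 0.896 in heat stress+NMN samples. The 3 groups did not overlap, and the samples of each group lay close together. These values rest on 513 to 796 fragments. The log2 fold change was 0.54 ± 0.20 between heat stress and control (unadjusted P = 0.0117, adjusted P = 0.128 with limma), 0.29 ± 0.19 between heat stress+NMN and heat stress (adjusted P = 0.600) and 0.83 ± 0.19 between heat stress+NMN and control (adjusted P = 0.00315). The last call became an adjusted P of 0.0525 without heat stress+NMN replicate 2, and the value between heat stress and control became 0.41 (unadjusted P = 0.051, adjusted P = 0.279 with limma) at the same number of nuclear fragments.

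CAMK2G, the gamma chain of CaM kinase II (chr14:76535095-76632381, - strand, 49 annotated transcripts), had FPKM of 0.291 and 0.295 in control, 0.320 and 0.259 in heat stress, and 0.282 and 0.284 in heat stress+NMN samples, on 222 to 343 fragments. The log2 fold changes were -0.03 ± 0.27 (95% interval -0.58 to 0.51), -0.02 ± 0.28 (-0.59 to 0.56) and -0.05 ± 0.26 (-0.59 to 0.49) in the 3 comparisons, so changes within these bounds were not detectable. The span of CAMK2G overlaps LOC102160869, LOC106506035 and PLAU.

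**Figure D3:**
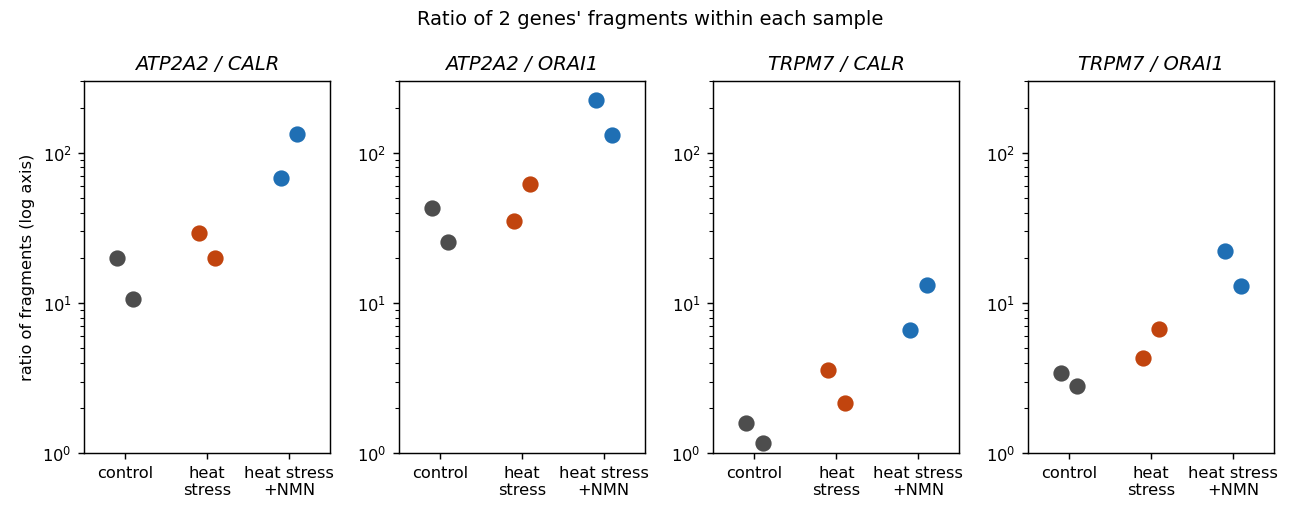
Ratios of recovered fragments of 2 genes within each sample (vertical axes, log scale) in the 3 groups (horizontal axes), with 1 point per sample. In all 4 panels both heat stress+NMN points lie above the other 4.

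A ratio of 2 genes within a sample does not depend on the scaling of the samples. ATP2A2 held 19.8 and 10.6 fragments for each CALR fragment in control, 29.2 and 20.1 in heat stress, and 67.5 and 134 in heat stress+NMN samples. The ratio of TRPM7 to ORAI1 was 3.44 and 2.81, 4.32 and 6.73, and 22.1 and 12.9 in the same order. The ratio of ATP2A2 to ORAI1 was 42.8 and 25.5, 35 and 62.3, and 225 and 131, and that of TRPM7 to CALR was 1.59 and 1.17, 3.59 and 2.18, and 6.63 and 13.1. Each pair joined a gene that rose with one that fell, so these ratios describe the same differences without a scaling and are no further support for them.

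To order the genes by level, the fragments were divided by the length of the longest coding transcript, in the authors' scaling. That transcript makes up 50.31% of the CALR gene but 2.10 to 14.24% of the other 8. The mean deposited FPKM therefore places CALR (6.97) far above ORAI1 (0.770), which it does not exceed in the mean per transcript. ATP2A2 was highest at 167 ± 43.6 (SD over 6 samples) FPKM per transcript and overlapped no other gene of the 9. ORAI1 (14.9 ± 7.12), CALR (14.8 ± 8.18), TRPM7 (10.1 ± 2.52), CAMK2G (7.66 ± 0.547) and STIM1 (7.04 ± 1.15) followed, each overlapping its neighbour in this order. ITPR1 (2.94 ± 1.0), ITPR3 (0.744 ± 0.359) and ITPR2 (0.0654 ± 0.0457) were lowest and did not overlap each other. The order differed between the groups. CALR (22.2) and ORAI1 (20.2) came next after ATP2A2 in the control means. In the heat stress+NMN means TRPM7 (12.7), CAMK2G (7.50) and STIM1 (7.39) stood above ORAI1 (6.87) and CALR (5.95). There the values of CAMK2G, STIM1, ORAI1 and CALR overlapped. Whether intronic fragments were counted is not given in the sources used here, so these levels between genes are approximate.

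**Figure D4:**
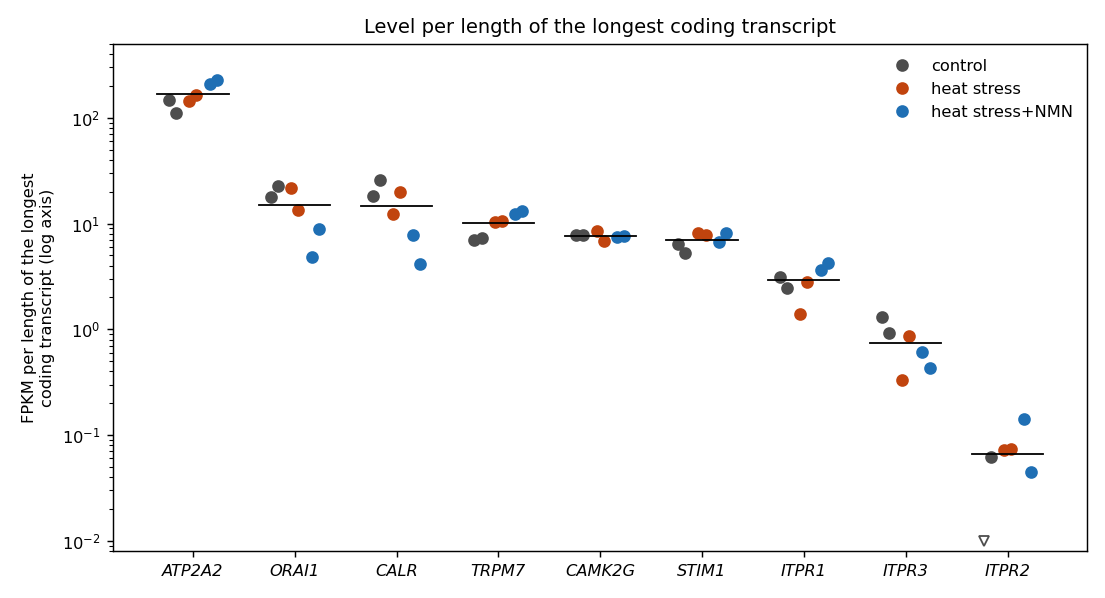
FPKM per length of the longest coding transcript (vertical axis, log scale) for the 9 genes (horizontal axis, in order of the mean), with 1 point per sample coloured by group and a line at the mean of the 6 samples. The open triangle marks ITPR2 in control replicate 1, which was at 0. ATP2A2 stands apart at the top, and ITPR2 at the bottom.

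On the same scale, relatives of these genes were lower, level or higher, depending on the role. ATP2A1 and ATP2A3, the other SERCA pumps, averaged 0.295 and 0.317, and RYR2 and RYR3, release channels of another kind, averaged 3.01 and 2.97 beside the 2.94 of ITPR1. STIM2 averaged 3.07, and ORAI2 and ORAI3 averaged 0.121 and 0.580. TRPM6, the near relative of TRPM7, averaged 1.10. Relatives with a higher mean over the 6 samples were found for CALR and CAMK2G. CANX averaged 28.5 (19.8 to 34.9 over the 6 samples) beside the 14.8 of CALR (4.18 to 26.0). These ranges overlapped, and CALR averaged 22.2 in the control samples, so CANX was not shown to be higher there. CALR3 averaged 0.385. For CaM kinase II, CAMK2D averaged 53.9 (44.9 to 60.5 over the 6 samples) against 6.87 to 8.55 for CAMK2G, and CAMK2A and CAMK2B averaged 0.522 and 0.00924.

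Beyond the 9 genes, 109 other calcium genes in 5 lists were examined, of which 84 could be tested from recovered fragments. Between heat stress and control, 14 rose and 4 fell at an unadjusted P (21.4%), and 5 rose and none fell at an adjusted P (5.95%). Between heat stress+NMN and heat stress, 3 rose and 1 fell at an unadjusted P (4.76%), and none passed the adjusted P. Between heat stress+NMN and control, 19 rose and 9 fell at an unadjusted P (33.3%), and 14 rose and 3 fell at an adjusted P (20.2%). Over all tested genes the unadjusted shares were 18.0%, 11.2% and 29.6%, and the adjusted shares in the first and last comparison were 4.22% and 18.5%. The balance of directions turned with the scaling. At the same number of nuclear fragments, 9 rose and 6 fell at an unadjusted P between heat stress and control. In that scaling 2 rose and 6 fell between heat stress+NMN and heat stress, and 11 rose and 19 fell between heat stress+NMN and control. Over all 13210 tested genes, 2392, 1268 and 3847 passed in the 3 comparisons. The adjusted P was then passed by 418 and 2121 of all tested genes in the first and last comparison. Of the list genes, the first comparison had 2 that rose (FBXO43 and WEE2) and 2 that fell (HSPA5 and INPP1). The last had 4 that rose (ATP2B1, ERLIN2, FBXO43 and WEE2) and 6 that fell. Of the 14 that rose in the authors' scaling, all 14 stayed above 0 but only these 4 kept the adjusted call, while the 3 that fell kept theirs. In the FPKM fit 25 of the 109 could be tested, and 8 (32%), 2 (8%) and 13 (52%) passed an unadjusted P in the 3 comparisons, where 22.8%, 13.6% and 41.3% of all genes did.

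**Figure D5:**
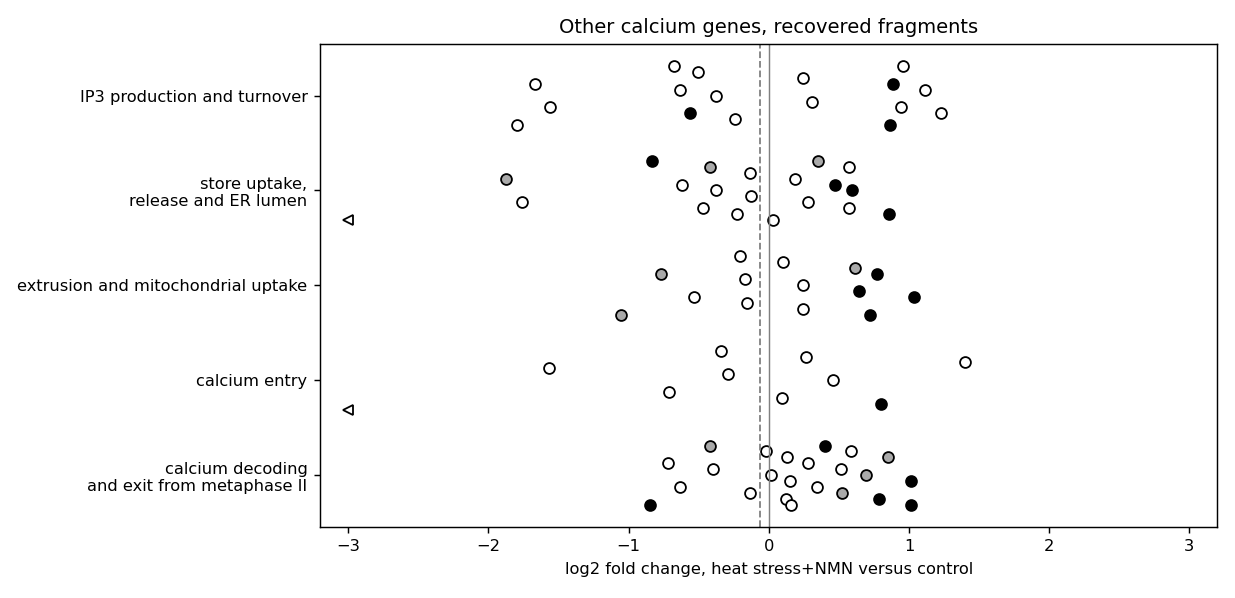
Log2 fold changes between heat stress+NMN and control (horizontal axis, recovered fragments) in the authors' scaling of the 84 tested other calcium genes, 1 point per gene, in 5 lists (rows). Black points passed an adjusted P under 0.05 and grey points an unadjusted P only, triangles mark 2 genes beyond the axis, and the dashed line is the median of all tested genes at -0.06.

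Among the 17 tested genes of IP3 production and turnover, 2 rose and 1 fell at an adjusted P between heat stress+NMN and control. That is 17.6%, beside 18.5% of all tested genes. At the same number of nuclear fragments 1 rose and 1 fell, without IMPA1. In the authors' scaling the median was -0.24. ERLIN2, an ER membrane protein that takes part in the removal of active IP3 receptors, rose by 0.86 ± 0.16 (adjusted P = 0.000378 with limma), and IMPA1, an inositol monophosphatase, rose by 0.89 ± 0.23 (adjusted P = 0.00754). INPP1, which takes a phosphate from inositol polyphosphates, fell by 0.56 on the log2 scale (SE 0.12, adjusted P = 0.00098). ERLIN2 had FPKM of 7.75 and 6.26 in control, 10.5 and 10.3 in heat stress and 13.8 and 11.5 in heat stress+NMN samples, and it also passed the adjusted P between heat stress and control (0.59 ± 0.16, adjusted P = 0.041). PLCB1, a phospholipase C, had 0.74 ± 0.29 there (adjusted P = 0.152). PLCZ1, the phospholipase C that sperm bring to the egg, held 54.0 to 166 fragments per sample.

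Of 20 tested genes of store uptake, release and the ER lumen, 3 rose and 1 fell at an adjusted P between heat stress+NMN and control. CANX, CLGN and RCN2 rose and HSPA5 fell, which is 20% beside 18.5% of all tested genes, and the median was -0.13. At the same number of nuclear fragments none rose and 2 fell (CALU and HSPA5). RCN2, a calcium-binding protein of the ER, rose by 0.47 ± 0.14 (adjusted P = 0.0212 with limma) and CLGN, a chaperone of the calnexin family, by 0.85 ± 0.27 (adjusted P = 0.0296). CLGN had also risen in heat stress versus control (1.0 ± 0.27, adjusted P = 0.0353). HSPA5 had FPKM of 41.6 and 48.4 in control, 29.1 and 33.7 in heat stress, and 25.6 and 24.9 in heat stress+NMN samples, with no overlap between the groups. Its value in heat stress versus control was -0.52 ± 0.16 (adjusted P = 0.0565).

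Where 18.5% of all tested genes passed an adjusted P between heat stress+NMN and control, 1 of 10 tested calcium entry genes (10%) did, and it rose. This was CACNA2D1, a side subunit of voltage-gated channels, at 0.80 ± 0.21 (adjusted P = 0.00962 with limma), or 0.53 (adjusted P = 0.0922) at the same number of nuclear fragments. CACNB3, another side subunit, held 62 and 53 fragments in control, 12 and 24 in heat stress, and 1 and 0 in heat stress+NMN samples, and did not pass the adjusted threshold (adjusted P = 0.169). TRPV3, a channel known in mouse eggs, held 26 to 53 fragments per sample.

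Of 14 tested genes of extrusion and mitochondrial uptake, 4 rose and none fell at an adjusted P between heat stress+NMN and control. The share was 28.6%, beside 18.5% of all tested genes. At an unadjusted P, 5 rose and 2 fell (50%, beside 29.6% of all tested genes). At the same number of nuclear fragments 1 rose (ATP2B1) and 1 fell (SLC8B1). ATP2B1, the pump that moves calcium out through the cell membrane, rose by 1.04 ± 0.14 (adjusted P = 6.76e-06 with limma), with FPKM of 2.57 and 2.06 in control, 2.98 and 3.63 in heat stress and 4.82 and 4.59 in heat stress+NMN samples. It had risen by 0.53 ± 0.14 between heat stress and control (adjusted P = 0.0354), and it had 0.51 ± 0.14 between heat stress+NMN and heat stress (unadjusted P = 0.000854, adjusted P = 0.115 with limma). MCU, the pore of the mitochondrial calcium uniporter, rose by 0.65 ± 0.15 (adjusted P = 0.0035), its partner MCUR1 by 0.72 ± 0.22 (adjusted P = 0.0195) and its regulator MICU2 by 0.77 ± 0.23 (adjusted P = 0.0217).

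Of 23 tested genes of calcium decoding and exit from metaphase II, 21.7% passed an adjusted P between heat stress+NMN and control, beside 18.5% of all tested genes. Here 4 rose (WEE2, FBXO43, MARCKS and RCAN1) and 1 fell (PRKCA). At the same number of nuclear fragments 2 rose (WEE2 and FBXO43) and 2 fell (PRKCA and PPP3R1). WEE2, the oocyte kinase that restrains CDK1 and is needed to leave metaphase II, had FPKM of 157 and 134 in control, 201 and 198 in heat stress and 251 and 249 in heat stress+NMN samples. It rose by 0.79 ± 0.08 (adjusted P = 7.62e-07 with limma), and by 0.46 ± 0.08 in heat stress versus control (adjusted P = 0.00215). FBXO43, known as EMI2, which holds the egg at metaphase II until calcium rises, had FPKM of 20.9 and 18.5, 30.6 and 35.3, and 43.4 and 36.1. It rose by 1.01 ± 0.13 (adjusted P = 6.76e-06), and by 0.74 ± 0.14 in heat stress versus control (adjusted P = 0.00266). PRKCA, a calcium-dependent protein kinase C, fell by 0.85 on the log2 scale (SE 0.23, adjusted P = 0.00979).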

How the data were processed

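Gene-level values of 6 oocyte samples (3 groups of 2) were used. The FPKM values were made and deposited by the authors, whose processing notes name Cufflinks 2.2.1, Cuffnorm and Cuffdiff; tophat2 on the pig genome is named in the methods. The table also holds the authors' own fold changes and P-values for their comparisons, which were not used. Annotation was RefSeq for Sscrofa11.1, and 26763 of 29861 genes matched 1 annotated span. Fragments were recovered as FPKM times the gene span less an offset, divided by the worth of 1 fragment in the sample, found from low values (up to 50 fragments) of genes that overlap no other. The planned order of levels by FPKM was replaced by one per transcript length, since the FPKM proved to be per gene span. Samples were grouped by their treatment label.

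limma 3.58.1 in R 4.3.3 with a variance trend was run on log2(FPKM + 1) for genes whose FPKM averaged 1 or more, all 6 samples in 1 fit. limma's voom was run on recovered fragments, in the authors' scaling, for genes with a mean of at least 10 fragments. Both were tested on simulated data. Calls used P under 0.05, unadjusted and Benjamini-Hochberg adjusted over all tested genes; all tests were two-sided. The 9 genes, the 5 lists and the tests were chosen with earlier results of these data known. Genes of the lists were named as the 2 with the smallest unadjusted P and no overlap between groups in each list and comparison, and 3 like CALR by pattern; the same naming applied to recovered fragments, and IMPA1, MICU2, MARCKS, RCAN1, PRKCA, PLCZ1, TRPV3, CALU, SLC8B1, PPP3R1 and the relatives of the 9 were added after their values were seen. Alternatives varied the pseudocount, minimum, scaling, variance trend, samples and pairing. Same-numbered samples of 2 groups had deviations that correlated between -0.032 and 0.018, so the numbers did not pair the samples.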

Additional observations from a re-analysis of the deposited data

How the results depend on the processing

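In the FPKM fit, the count of the 9 genes passing an unadjusted P between heat stress and control was 0 of 2 tested. With no minimum FPKM it was 1 of 9, where 2388 of all 20552 genes passed, and from recovered fragments 1 of 8. Between heat stress+NMN and heat stress it was 2 of 2. After quantile normalization it was 1 of 2, where 528 of 4713 genes passed, and from recovered fragments 4 of 8. Between heat stress+NMN and control it was 2 of 2, with 4 of 7 at a minimum mean of 0.1 FPKM and 4 of 9 with no minimum. Over all genes, 1948 of 4713, 3236 of 11651 and 3700 of 20552 passed there. The count was 1 of 2 at the same sum of nuclear FPKM and 4 of 8 from recovered fragments. At an adjusted P the last count was 2, and 0 at either lower minimum, where 86 of 11651 and 0 of 20552 genes passed. It was 1 after quantile normalization, 1 at the same sum of nuclear FPKM, 1 with only the 2 compared groups in the fit and 4 from recovered fragments. Leaving out 1 sample at a time gave 0 to 1, 0 to 2, 2 to 2 and, adjusted, 0 to 1. Counts of the other calcium genes were 8, 2 and 13 of 25 tested in the 3 comparisons, where 1074, 641 and 1948 of all 4713 genes passed. These became 0, 0 and 3 at the same sum of nuclear FPKM, where 562, 269 and 789 of all 4713 genes passed. They were 18, 4 and 28 of 84 tested from recovered fragments, where 2375, 1473 and 3906 of all 13210 genes passed. The second was 4 of 25 after quantile normalization, where 528 of 4713 genes passed. The third was 21 of 57 tested at a minimum mean of 0.1 FPKM, where 3236 of all 11651 genes passed. With no minimum it was 24 of 105, where 3700 of all 20552 genes passed. Leaving out samples gave 4 to 9, 0 to 2 and 7 to 12.

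From recovered fragments, leaving out samples gave 1 to 3, 2 to 4 and 3 to 5 of the 9 genes and, adjusted, 2 to 4 between heat stress+NMN and control, the lowest without heat stress+NMN replicate 2, where TRPM7 and ORAI1 were lost. It gave 11 to 20, 3 to 8 and 15 to 27 of the other calcium genes, and the second count was 8 (2 higher and 6 lower, in place of 3 and 1) at the same number of nuclear fragments and 7 with only the 2 compared groups.

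With the replicate number as a block (replicate block), the FPKM fit called 5 in place of 8 and 0 in place of 2 of the other calcium genes in the first 2 comparisons and, adjusted, 0 of the 9 genes between heat stress+NMN and control, where ATP2A2 had 0.70 (adjusted P = 0.0672 with limma) and CALR -1.61 (adjusted P = 0.0536). Over all 4713 genes, that block left 937 and 527 passing an unadjusted P in the first 2 comparisons, and 445 an adjusted P in the last. From recovered fragments the replicate block changed no count of the 9 genes.

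ATP2A2 turned to -0.10 between heat stress and control at the same sum of nuclear FPKM. From recovered fragments, leaving out single samples turned ITPR1 (-0.979 to 0.026), ORAI1 (-0.568 to 0.055) and CAMK2G (-0.177 to 0.126) in heat stress versus control, and ITPR3 (-0.724 to 0.627), STIM1 (-0.244 to 0.051) and CAMK2G (-0.176 to 0.126) in heat stress+NMN versus heat stress. The cause was not tested. Of 90 other settings of single fold changes within the FPKM fit 81 kept direction and side of the unadjusted threshold, and of 240 within the fit of recovered fragments 216 did. Set against the other fit, 6 of 6 and 43 of 45 did. The depth of 23 to 220 fragments limits ITPR3 and ORAI1, and ITPR2 was under the minimum.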
